A study of Homo sapiens with 12 samples.

Results

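A set of 157 long non-coding RNA (lncRNA) genes was higher in every doxorubicin library than in any control library of HCT116, a human cell line established from a colon carcinoma. They were chosen by that measurement from the 16676 genes listed. The rule took genes annotated as lincRNA, antisense or processed_transcript in GENCODE release 29 (build GRCh38) with a mean of 1 to 5000 TPM over the 12 libraries. TPM, a transcript abundance, scales a gene's reads by its exon length and by the library total, so that each library sums to 1000000. The lowest TPM of the 6 doxorubicin libraries had to exceed the highest of the 6 control libraries. Of 1442 genes of these types, 948 were in the range and 163 passed. The rule left out SNHG genes and a few named lncRNAs, which removed 6 of those that passed (LINC-PINT, MIR34AHG, PINCR, SNHG7, SNHG11 and SNHG26). The share passing was 17.2% of these lncRNAs, 15.5% of all genes in the range and 16.2% of protein-coding genes, so the lncRNAs passed about as often as other genes. In the opposite direction 14.6% of the lncRNAs passed. Since the contrast between the media chose the members, it is described below without a test.

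Long non-coding RNAs are transcribed by RNA polymerase II and mostly spliced and polyadenylated, but they carry no long conserved reading frame. Some act on chromatin, splicing or microRNAs, some are hosts from which small RNAs are cut, and many are known only as transcripts that start from the promoter of a protein-coding gene. Doxorubicin, an anthracycline drug, poisons topoisomerase II and thereby leaves DNA double-strand breaks, to which cells with intact p53 respond by activating it.

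The groups were WT cells, cells knocked out for the lncRNA SPARCLE (KO) and cells over-expressing it (OE), each in regular medium (control) or with 1 µM doxorubicin for 48 h. Every group had 2 libraries of total RNA, a and b, stated to be biological replicates. Whether the KO or OE cells were single clones, and how SPARCLE was deleted or driven, was not given in the sources used here. With 2 libraries a group, p-values measure only the spread between these libraries.

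SPARCLE itself had 0 reads in all 4 control libraries of WT and KO cells and 384 and 622 reads in OE control. In the doxorubicin libraries the reads were 0 and 3 (WT), 4 and 1 (KO) and 430 and 487 (OE), so a loss in KO cells was not detectable at this depth. The libraries held 12593468 to 30674428 reads on the listed genes. All 6 doxorubicin libraries (at least 24878542 reads) were deeper than all 6 control libraries (at most 18562211 reads). All 9 epithelial markers were listed, with a summed level of 1109 to 2358 TPM in control and 2792 to 3418 TPM in doxorubicin libraries. Of the markers of other cells, 2 of 8 mesenchymal, 1 of 6 leukocyte and 1 of 4 endothelial genes were listed, the leukocyte gene at up to 1.00 TPM, while PTPRC, CD3E and PECAM1 were not among the listed genes. The 2 mesenchymal genes summed to 9.01 to 12.6 TPM in control and 3.44 to 8.08 TPM with doxorubicin, so that the media did not overlap for the epithelial sum (higher) or the mesenchymal sum (lower). The part of either in the members' levels was not tested. In RNA from whole cultures, a change in how much RNA a cell holds and a change in which cells are present cannot be told apart.

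By annotation 73 members were antisense, 61 lincRNA and 23 processed_transcript genes. They lay on 23 chromosomes, with 18 on chromosome 1, 17 on chromosome 17, 15 on chromosome 12 and 14 on chromosome 16. Within the set, 9 pairs of members lay within 100 kb of each other. A clone name was all that GENCODE gave for 80 members, of which 30 have since received a symbol. In their longest transcript 32 members (20.4%) had 1 exon, against 28% of the 948 lncRNAs in the range.

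Most members were low. The median of their control means was 1.11 TPM and the median of their doxorubicin means 4.06 TPM, and 72 had a control mean under 1 TPM. A doxorubicin mean of at least 10 TPM was reached by 23 members. The ratio of the means ran from 1.41 to 43.6 with a median of 3.66. The gap, which is log2 of the lowest doxorubicin TPM over the highest control TPM, had a median of 0.50 and reached at least 1 in 30 members. In 101 members no control library held 50 reads, and 9 members had a control library with 0 reads, whereas no member had fewer than 15 reads in any doxorubicin library. Just inside the rule lay DNAH17-AS1, AC018647.2 and AL390719.2, with gaps that round to 0.00, 0.00 and 0.01. DNAH17-AS1 reached 0.87 TPM in both its highest control and its lowest doxorubicin library. Just outside lay AC009133.5 (lowest doxorubicin 3.04, highest control 3.04 TPM), AL162258.1 (23.6 against 23.9 TPM) and AL355816.2 (1.43 against 1.45 TPM).

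**Figure D1:**
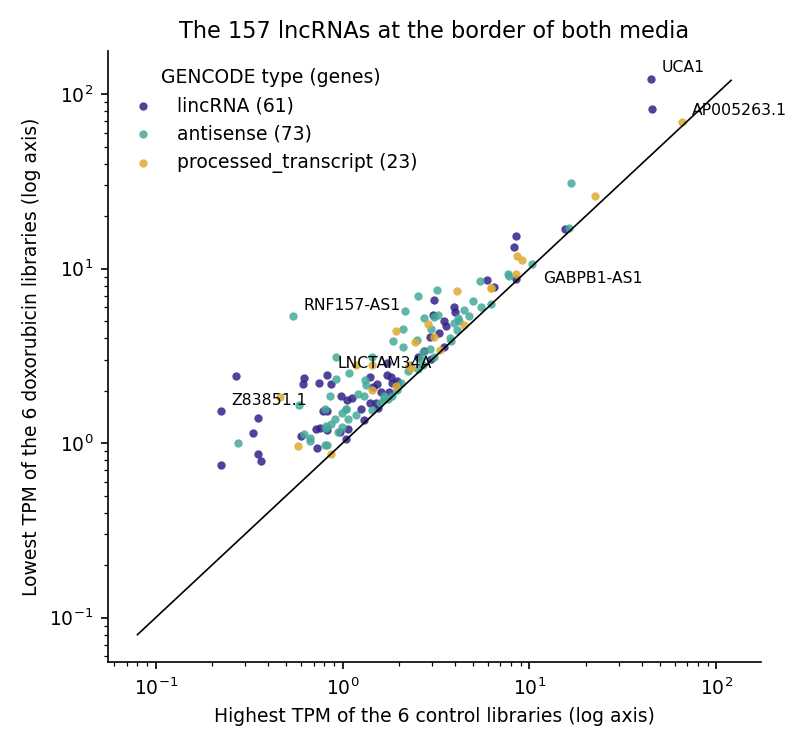
Each point is 1 of the 157 lncRNAs, coloured by annotated type, with its highest TPM in the 6 control libraries on the x axis and its lowest TPM in the 6 doxorubicin libraries on the y axis, both on log axes. All points lie above the line of equality, as the rule requires; RNF157-AS1 and Z83851.1 lie far from it and AP005263.1 and GABPB1-AS1 next to it.

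The widest separation belonged to RNF157-AS1, an antisense gene on chromosome 17 (76140556 to 76154650, plus strand) whose start faces that of FOXJ1. The control libraries a and b gave 0.0742 and 0.311 TPM for WT, 0.542 and 0.091 TPM for KO and 0.206 and 0.0377 TPM for OE cells. The doxorubicin libraries gave 7.13 and 6.14 TPM for WT, 11.8 and 5.39 TPM for KO and 11.9 and 5.37 TPM for OE cells. The lowest doxorubicin library was 9.91 times the highest control library, which held 12 reads against 249 to 519 reads with doxorubicin. HK2-DT (AC019069.1), transcribed away from the hexokinase 2 gene on chromosome 2 (74832655 to 74833987, minus strand), came next with 0.0646 to 0.268 TPM in the control and 2.42 to 4.70 TPM in the doxorubicin libraries. Its control libraries held 1 to 3 reads each, at or under the floor of 3 reads, so no ratio is given for it. Z83851.1, on the opposite strand of TCF20, had 0 reads in 4 control libraries and 1 in each of the other 2, against 18 to 40 reads with doxorubicin. LINC01910 stood at no more than 0.354 TPM in control and at least 1.40 TPM with doxorubicin, and ZNF561-AS1 at no more than 0.461 and at least 1.83 TPM. FOXN3-AS1 ran from 0.0799 to 0.583 TPM in control and from 1.66 to 3.76 TPM with doxorubicin.

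LNCTAM34A, an lncRNA transcribed away from the host gene of the p53-induced miR-34a, is shown with its promoter because it was the 1 member, of 73 whose promoter was searched, with a pair of adjacent p53 half-sites. Without doxorubicin, WT cells held 0.382 and 0.775 TPM, KO cells 0.378 and 0.585 TPM and OE cells 0.83 and 0.356 TPM. With the drug, WT cells held 3.11 and 2.78 TPM, KO cells 4.63 and 2.85 TPM and OE cells 5.26 and 2.47 TPM. Every doxorubicin library thus held at least 2.47 TPM, and no control library held more than 0.83 TPM. RefSeq promoters (250 bases before to 50 after the start, GRCh38.p14) were found by symbol, with a start within 1000 bases of the GENCODE start, for 73 members. That of LNCTAM34A is chr1:9181954-9182253 on the plus strand, with its p53 half-sites in capitals.
LNCTAM34A: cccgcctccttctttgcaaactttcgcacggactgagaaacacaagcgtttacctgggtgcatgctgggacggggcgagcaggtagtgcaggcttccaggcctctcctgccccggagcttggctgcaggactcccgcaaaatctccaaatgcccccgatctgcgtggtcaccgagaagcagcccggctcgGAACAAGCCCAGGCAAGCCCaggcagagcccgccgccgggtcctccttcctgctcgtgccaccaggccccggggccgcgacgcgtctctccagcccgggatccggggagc

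The p53 half-site consensus, searched on both strands, was held by 7 of the 73 promoters (9.59%) and by 6.54% of all 27305 RefSeq promoters. A pair of half-sites with 0 to 13 bases between them was held by 1 member and by 8 of all promoters. These matches describe letters in a window and are not evidence that p53 was bound. Of the 7, 4 are printed with the half-site in capitals, chosen after the matches were seen. All are on the plus strand of GRCh38.p14, at chr10:42475466-42475495 for LINC00839, chr1:1399538-1399567 for MRPL20-AS1 (AL391244.1), chr15:50354023-50354052 for GABPB1-AS1 and chr17:78484926-78484955 for DNAH17-AS1.
LINC00839: catccaatccGAACATGCCTtacaggatat
MRPL20-AS1: gccgacccggAAGCATGTCTgtccctagcg
GABPB1-AS1: tttgtactgaAAACAAGCTTaaagtgggaa
DNAH17-AS1: tgtccacctcGGGCATGTTCatgtcgtcga

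Other short motifs were counted the same way. GGGCGG, a letter run bound by SP1-type factors, was in 48 of the 73 promoters (65.8%) and in 44.6% of all. TATAAA was in 3 (4.11%) and in 11.9% of all, CCAAT in 24 (32.9%) and in 35.7% of all, and TGANTCA, the AP-1 motif, in 5 (6.85%) and in 7.76% of all. CACGTG was in 5 (6.85%, all promoters 7.43%) and the core motif of the interferon-stimulated response element in 1 (1.37%, all promoters 3.65%). Only members with a RefSeq entry matched by symbol and start site were searched, so these shares do not describe all 157.

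UCA1, first described in bladder carcinoma, was the most abundant member with doxorubicin. In control medium WT cells held 8.0 and 30.5 TPM, KO cells 44.6 and 22.2 TPM and OE cells 43.0 and 24.7 TPM. After doxorubicin WT cells held 123 and 169 TPM, KO cells 181 and 141 TPM and OE cells 162 and 123 TPM. Library a of WT control lay well under the other 5 control libraries, which makes the difference between media largest in WT cells. AC105460.1, an intergenic gene on chromosome 4, followed with 20.6 to 45.5 TPM in control and 81.6 to 145 TPM with doxorubicin. LNCAROD ran from 3.44 to 8.29 TPM in control and from 13.2 to 59.7 TPM with doxorubicin, the low end being library b of WT cells. LINC01234 ran from 7.68 to 15.5 and from 17.0 to 28.5 TPM, so that its media were only 0.13 log2 units apart at the border.

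Among 62 names of well-studied lncRNAs, some of them synonyms, 42 were listed and 35 were in the range. Of the 35, 6 were members and 4 passed in the opposite direction (CYTOR, DLEU2, HOTAIRM1 and KCNQ1OT1). Over all lncRNAs in the range 17.2% passed, and 14.6% in the opposite direction, so these counts do not set the well-studied lncRNAs apart. Besides UCA1 the 6 members were CASC19, ELFN1-AS1, FTX, GABPB1-AS1 and LINC00511. CASC19, from the gene-poor region upstream of MYC, ran from 0.462 to 1.44 TPM in control and from 2.80 to 8.51 TPM with doxorubicin, on 2 to 6 and 18 to 60 reads. ELFN1-AS1, on the strand opposite ELFN1, ran from 0.328 to 3.10 and from 6.64 to 9.52 TPM. FTX, a gene of the X-inactivation centre, ran from 0.780 to 1.74 and from 2.46 to 4.51 TPM. GABPB1-AS1, whose start faces that of GABPB1, the partner subunit of an ETS-family factor, ran from 3.23 to 10.4 and from 10.7 to 31.0 TPM, with KO control a as the highest control and OE doxorubicin b as the lowest doxorubicin library. LINC00511 showed a small difference, from 1.84 to 2.32 TPM in control and from 2.68 to 3.53 TPM with doxorubicin. Of 11 further names of lncRNAs linked to p53 or DNA damage, some of them synonyms, 3 were listed, 2 were in the range and none was a member. LNCTAM34A was not among these names.

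**Figure D2:**
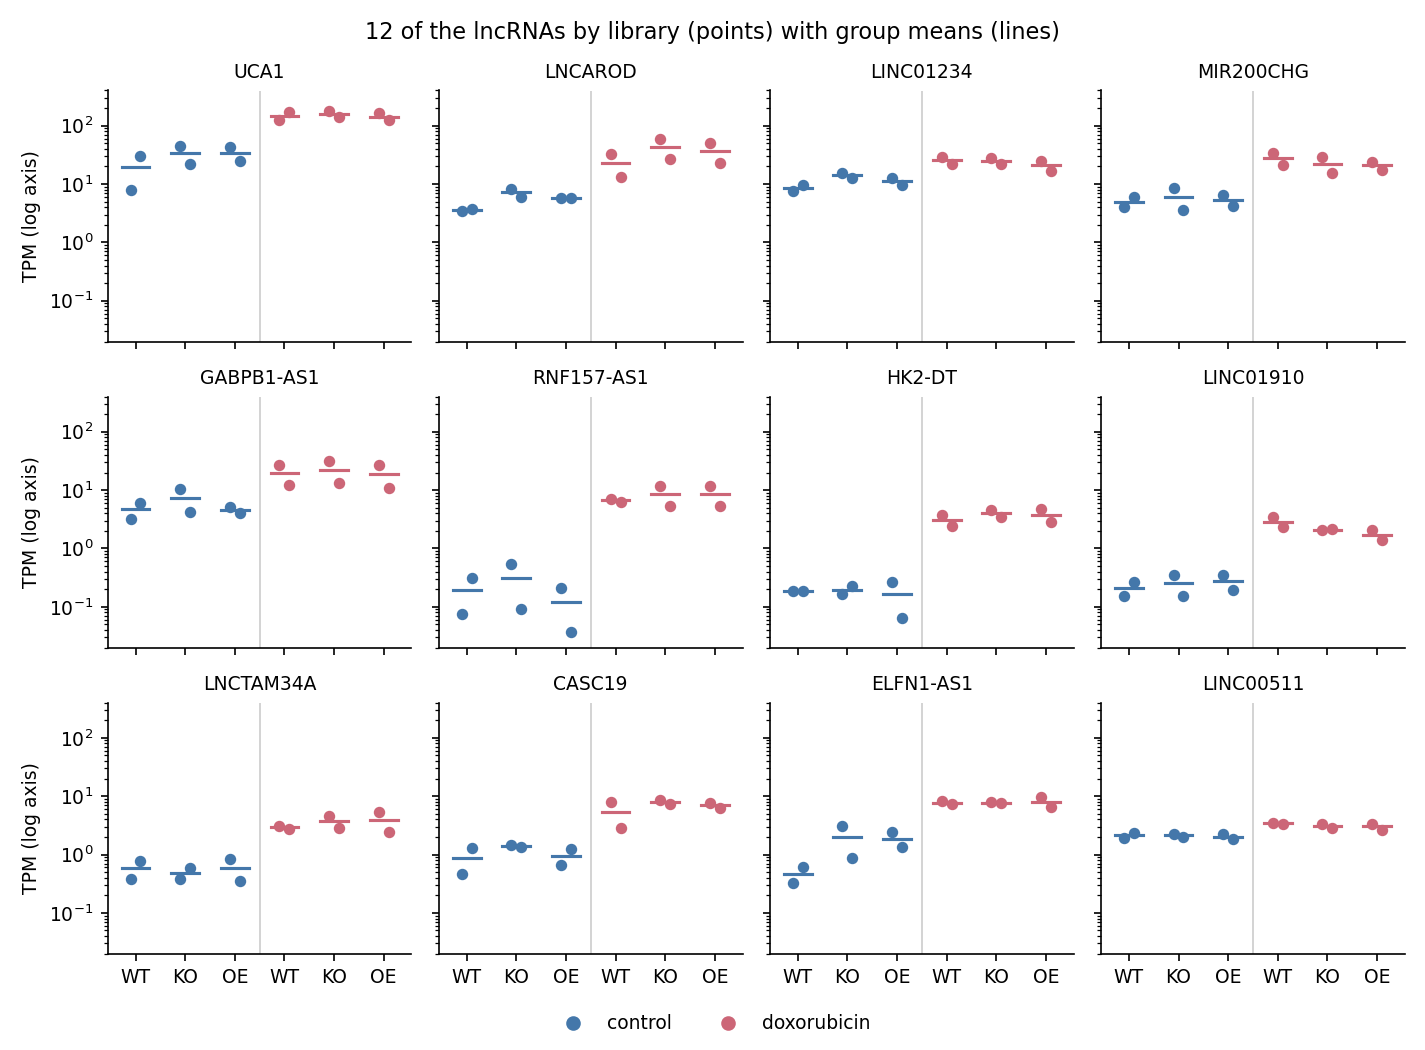
TPM on a shared log axis for 12 of the lncRNAs, with the 2 libraries of each group as points, the group mean as a line, control in blue and doxorubicin in red. UCA1 sits between 8.0 and 44.6 TPM in control and between 123 and 181 TPM with doxorubicin, and LINC00511 shows the smallest shift of the 12.

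A microRNA gene lay within the span of 6 members, on the same strand in 5. MIR200CHG, the host of miR-200c and miR-141, which hold epithelial identity by targeting ZEB factors, held 4.03 and 5.99 TPM for WT, 8.46 and 3.60 TPM for KO and 6.54 and 4.17 TPM for OE cells in control medium. With doxorubicin the values were 34.5 and 20.9 TPM for WT, 29 and 15.3 TPM for KO and 24.2 and 17.3 TPM for OE cells. FTX holds miR-421, miR-374b, miR-545 and miR-374a. The mature sequences below are shown for the arms these hosts are best known for; their seeds (bases 2 to 8, in capitals) all differ. The libraries do not measure mature microRNAs.
hsa-miR-200c-3p: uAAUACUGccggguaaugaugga
hsa-miR-141-3p: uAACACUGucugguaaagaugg
hsa-miR-421: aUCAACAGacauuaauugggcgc
hsa-miR-374b-5p: aUAUAAUAcaaccugcuaagug

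Some members cannot be read as separate transcripts. In the deposited table, genes lying at least 95% within the exons of another gene had a median of 0.948 times the host's reads per base when on the same strand (93 pairs) and 0.173 times when on the opposite strand (22 pairs). The opposite-strand pairs ran from 0.00284 to 3.31, with quartiles of 0.068 and 0.502. AC006064.4, opposite GAPDH, was the lowest of them and held 638 reads against 1588710 for GAPDH. Exon bases on the opposite strand were shared with another gene by 90 members, at over 50% of their length by 14. The part of opposite-strand reads in their levels was not tested. Exon bases on the same strand were shared with another gene by 29 members, at 50% or more of their length by 12, and 11 of those 12 were processed_transcript genes. AP005263.1, the third most abundant member (48.5 to 65.2 TPM in control, 69.5 to 99.5 TPM with doxorubicin), shares 1045 of its 1050 exon bases with NDUFV2, a subunit of respiratory complex I. AC144548.1 (15.7 to 22.4 and 25.9 to 40.9 TPM) shares 780 of 946 bases with ANAPC7, a subunit of the anaphase-promoting complex. AC002094.1 shares all 1050 bases with TMEM199, and AC099329.1 (9.95 to 16.7 and 30.8 to 45.8 TPM) shares 488 of 1956 bases with HIGD1A. Reads on the shared bases cannot be assigned to the member or to the other gene. The other 128 members share no exon base on their own strand.

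The difference between media was then set side by side for the genotypes, as doxorubicin minus control on the scale log2(TPM + 1). The member medians were 1.30 in WT, 1.17 in KO and 1.22 in OE cells, against 0.17, -0.01 and 0.11 over all 15256 genes tested. The rule fixed the direction, so these medians are not evidence of it. In 117 members the 3 differences lay within 0.5 of each other. Only UCA1 (3.11 in WT, 2.30 in KO and 2.08 in OE), LINC02246 (0.67, 1.7 and 1.26) and AL138781.1, now LINC02846 (2.18, 2.69 and 3.29), spread by more than 1. In AL138781.1 the spread lies within groups as well, with 21.0 and 2.35 TPM in KO and 20.5 and 4.55 TPM in OE cells with doxorubicin.

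**Figure D3:**
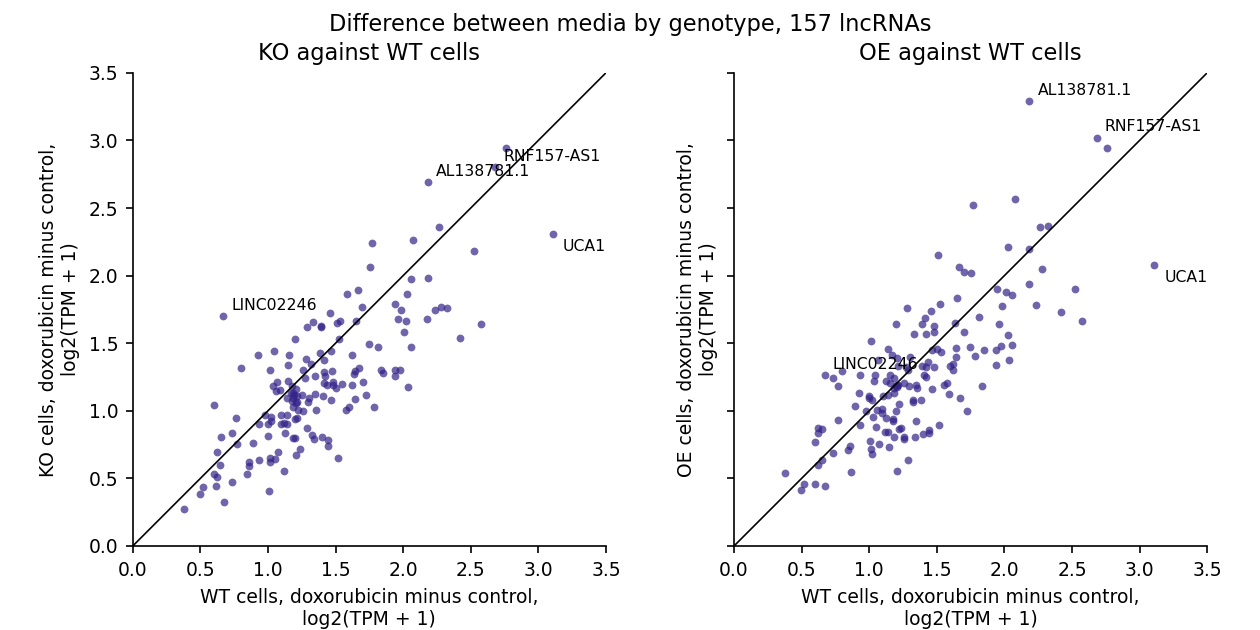
Doxorubicin minus control on the log2(TPM + 1) scale for each of the 157 lncRNAs, with WT cells on the x axis and KO cells (left) or OE cells (right) on the y axis, and the line of equality. Most points lie near the line; UCA1 lies below it and LINC02246 above it in both panels.

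Whether SPARCLE loss or over-expression moved the members was tested with limma over all 15256 genes, at a Benjamini-Hochberg adjusted p under 0.05. All 157 passed the filter on low values, which the doxorubicin libraries alone could satisfy, and 72 had a control mean under 1 TPM. No member was called in KO against WT cells in control medium (0.0918% of all genes were called), in KO against WT with doxorubicin (0.295%), in OE against WT in control medium (0.118%), in OE against WT with doxorubicin (0.315%), or in the KO by doxorubicin and OE by doxorubicin interactions (0.00655% each). At an unadjusted limma p under 0.05 the counts were 5, 2, 2, 4, 1 and 0 of 157. These are 3.18%, 1.27%, 1.27%, 2.55%, 0.637% and 0% of the members, against 7.14%, 3.43%, 5.03%, 4.83%, 1.27% and 0.983% of all genes. The comparisons with WT share the WT libraries. These counts of 0 stand beside backgrounds well under 1% and do not show that the genotypes are alike. The rule also kept all values of a medium on 1 side of the border between the media. It could thereby leave out genes with large genotype differences, so the members' counts and shares were in part limited by how the members were chosen.

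The nearest to a call was LINC02246, a lincRNA on chromosome 21 (14819699 to 14918552, minus strand). With doxorubicin WT cells held 1.08 and 0.871 TPM, KO cells 2.84 and 3.20 TPM and OE cells 2.26 and 1.93 TPM, and in control it stood between 0.132 and 0.354 TPM. The KO libraries were higher than the WT libraries by 1.03 log2 units (SE 0.206, limma adjusted p = 0.0719), and the OE libraries by 0.65 (SE 0.206, limma adjusted p = 0.531). With 5 of 11 alternative settings, among them median-ratio scaling and whole reads, the KO difference was called. With the other 6 it was not, among them a pseudocount of 0.1 (limma adjusted p = 0.395) and a fit of only the groups compared (limma adjusted p = 0.196). LINC02246 shares 1554 of its 3635 exon bases with AF127577.4 on its own strand. AC011747.1 with doxorubicin gave 2.81 and 2.22 TPM (WT), 4.76 and 8.31 TPM (KO) and 4.87 and 6.06 TPM (OE), with a KO difference of 1.06 (SE 0.273, limma adjusted p = 0.244). ELFN1-AS1 in control medium gave 0.328 and 0.601 TPM (WT), 3.10 and 0.886 TPM (KO) and 2.43 and 1.33 TPM (OE), on 4 to 30 reads. Its difference was 0.93 in KO (SE 0.351, limma adjusted p = 0.62) and 0.95 in OE cells (SE 0.351, limma adjusted p = 0.834). These 3 were chosen for mention after their values were seen.

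The protein-coding neighbour of each member was not part of the rule, so its own difference between media could be tested. A neighbour was divergent for 60 members (opposite strand, starts at most 2000 bases apart), overlapped on the opposite strand for 39, overlapped on the same strand for 12 and was otherwise the nearest gene for 46. Of 126 neighbours tested, 40 were higher with doxorubicin in WT cells (31.7%, all protein-coding genes 20.8%) and 12 were lower (9.52%, all protein-coding genes 12%). In KO cells 24 were higher (19%, background 10.3%) and 19 lower (15.1%, background 14.2%), and in OE cells 29 were higher (23%, background 12.7%) and 14 lower (11.1%, background 10.9%). Of the members, 8 share same-strand exon bases with their neighbour. Leaving out those neighbours, unless they were also the neighbour of another member that shares none, gave 34 higher of 119 in WT, 21 in KO and 24 in OE cells. The neighbours of the 647 lncRNAs in the range whose media overlapped were higher in WT cells in 21.4% of 477, and those of the 132 lncRNAs lower in every doxorubicin library in 13.9% of 101. No test between these shares was made. With median-ratio scaling 43 of 125 neighbours were higher and 19 lower in KO cells (34.4% higher, background 20.4%). In OE cells 45 were higher and 22 lower (36% higher, background 20.3%), and in WT cells 41 were higher and 20 lower (32.8% higher, background 23.9%). With voom on whole reads 40 were higher and 21 lower in WT cells (31.7% higher, background 23%). For these 2 settings the background was taken for higher genes only. Single libraries moved the counts and the background alike: the number higher in WT cells was 17 without WT control a (13.5%, background 6.31%) and 19 without WT doxorubicin a (15.1%, background 7.56%). In KO cells it was 5 without KO control b (3.97%, background 1.94%) and 8 without KO doxorubicin a (6.35%, background 2.41%). In OE cells it was 18 without OE control a (14.3%, background 5.78%), 7 without OE control b (5.56%, background 2.23%) and 9 without OE doxorubicin a (7.14%, background 2.78%).

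The positions differed in these counts. In WT cells 19 of 59 divergent neighbours were higher (32.2%) and 8 lower (13.6%), beside 20.8% and 12% of all protein-coding genes. Of 26 antisense-overlapping neighbours 2 were higher (7.69%) and 4 lower (15.4%). Among same-strand neighbours 9 of 11 were higher and none lower, and 11 of 31 intergenic neighbours were higher (35.5%) and none lower. For lncRNAs whose media overlapped, 22.6% of divergent, 21.6% of antisense-overlapping and 20.3% of intergenic neighbours were higher in WT cells. Of the 11 same-strand neighbours, 8 share exon bases with their member, and 7 of those 8 were among the 9 that were higher. Their reads are in part those the rule used, so the same-strand count is given as a description only. Among the 3 that share none, 2 were higher. In KO cells 12 divergent neighbours were higher (20.3%) and 10 lower (16.9%), beside 10.3% and 14.2% of all protein-coding genes. There 0 antisense-overlapping ones were higher and 6 lower (23.1%), and 8 intergenic ones were higher (25.8%) and 3 lower (9.68%). In OE cells the counts were 13 and 5 (22% and 8.47%), 1 and 7 (3.85% and 26.9%), and 9 and 2 (29% and 6.45%). The background in OE cells was 12.7% higher and 10.9% lower. Within a position, the size of a member's difference was set beside that of its neighbour across genes, which share the same libraries. Pearson's r was 0.01 in WT, 0.09 in KO and 0.01 in OE cells for 59 divergent pairs, -0.18, -0.29 and -0.47 for 26 antisense pairs and 0.03, 0.29 and 0.06 for 32 intergenic pairs. Spearman's coefficient was -0.07, 0.06 and -0.06 for divergent, -0.02, -0.20 and -0.37 for antisense and 0.03, 0.19 and -0.04 for intergenic pairs. The rule chose the members by their own difference, which limits its range. These coefficients are therefore given as a description only.

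**Figure D4:**
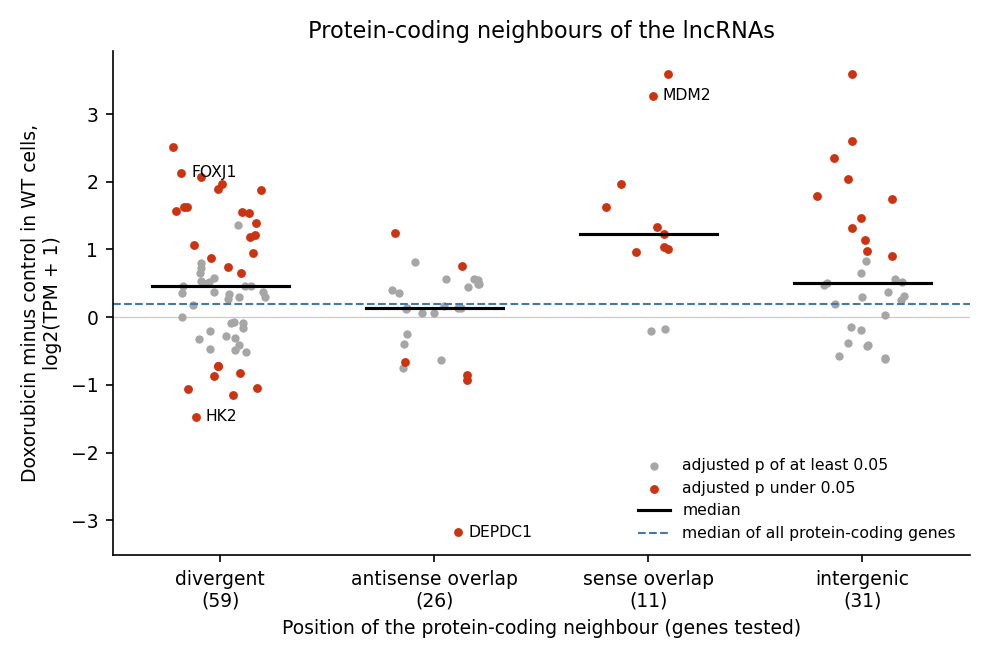
Doxorubicin minus control in WT cells, on the log2(TPM + 1) scale, for the tested protein-coding neighbours of the lncRNAs by position; red points have an adjusted p under 0.05, black lines are medians and the dashed line is the median of all protein-coding genes (0.20). Divergent neighbours lie on both sides of 0, with HK2 at -1.47 and FOXJ1 at 2.13, and DEPDC1 stands lowest at -3.18.

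Several divergent neighbours rose with their member. FOXJ1, the master regulator of motile cilia, faces RNF157-AS1 and stood at no more than 0.123 TPM in the control libraries and with doxorubicin at 2.77 and 4.26 TPM (WT), 2.40 and 0.917 TPM (KO) and 2.53 and 1.69 TPM (OE). Its limma difference was 2.13 in WT (SE 0.28, adjusted p = 0.000343), 1.26 in KO and 1.60 in OE cells. MACC1, a regulator of MET linked to metastasis of colon cancer, lies beside AC005083.1 (GIRGL) and stood at 7.74 and 12.6 against 46.0 and 43.3 TPM, a difference of 2.07. POLDIP2, beside AC002094.1, rose by 1.97, but that member's reads cannot be told from those of TMEM199, which shares all its exon bases. MVP, the major vault protein, beside AC009133.1 (MVP-DT), rose by 1.89, and NUDT19, beside AC008736.1 (NUDT19-DT), by 1.88. MPDU1, needed for the use of dolichol-linked mannose, beside AC016876.1, rose by 1.63 and VWA1, beside LINC01770, by 1.62. All of these were called with limma in WT, KO and OE cells.

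Other neighbours fell while the lncRNA was higher. HK2, the hexokinase that starts glycolysis, in control medium gave 18.8 and 37.1 TPM (WT), 17.8 and 32.2 TPM (KO) and 34.6 and 31.2 TPM (OE), and 8.33 and 9.60, 6.29 and 10.4, and 7.41 and 11.4 TPM with doxorubicin. No HK2 library with doxorubicin reached the lowest control library. Its difference was -1.47 in WT (SE 0.36, limma adjusted p = 0.00916), -1.45 in KO and -1.73 in OE cells, opposite to HK2-DT on the other strand of the same start region. That region, chr2:74833938-74834237 on the minus strand as RefSeq places HK2-DT, is printed with CCAAT and GGGCGG, on either strand, in capitals.
HK2-DT: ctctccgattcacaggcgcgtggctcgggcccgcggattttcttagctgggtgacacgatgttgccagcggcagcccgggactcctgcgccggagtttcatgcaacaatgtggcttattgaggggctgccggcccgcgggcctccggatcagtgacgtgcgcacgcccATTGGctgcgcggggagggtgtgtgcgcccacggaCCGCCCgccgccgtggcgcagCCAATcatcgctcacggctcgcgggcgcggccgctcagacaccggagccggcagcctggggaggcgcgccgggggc

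DEPDC1, a gene of dividing cells, lies on the strand opposite AL138789.1 and fell most of the neighbours tested. Control libraries gave 10.3 and 17.3 TPM (WT), 7.08 and 8.58 TPM (KO) and 5.43 and 5.96 TPM (OE), with no more than 0.652 TPM in any doxorubicin library. Its difference was -3.18 in WT (SE 0.27, limma adjusted p = 2.47e-05), -2.89 in KO and -2.56 in OE cells. AL138789.1 itself ran from 0.177 to 2.55 TPM in control and from 6.93 to 12.1 TPM with doxorubicin. ARHGAP5 fell by 1.15 in WT cells beside ARHGAP5-AS1. TNNI3, cardiac troponin I, fell by 1.04 beside AC010327.3 (DNAAF3-AS1), and SBF2 fell by 0.92 opposite SBF2-AS1. HK2, DEPDC1, ARHGAP5, TNNI3 and SBF2 were called lower with limma in WT, KO and OE cells.

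Of 71 p53 target genes, 1 was a neighbour of a member. This was MDM2, the ubiquitin ligase that p53 induces and that degrades it. AC025423.1, annotated as antisense although it lies on the strand of MDM2, overlaps MDM2 on chromosome 12 (68828118 to 68828553) and shares no exon base with it. AC025423.1 ran from 0.971 to 5.41 TPM in control and from 8.55 to 24.2 TPM with doxorubicin, on 3 to 21 and 62 to 172 reads. MDM2 ran from 21.3 to 29.9 TPM and from 137 to 259 TPM, with a difference of 3.26 in WT (SE 0.26, limma adjusted p = 2.19e-05), 2.85 in KO and 2.99 in OE cells. Reads from unspliced MDM2 RNA and from AC025423.1 cannot be told apart in libraries of total RNA. None of 69 interferon response genes was a neighbour.

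The border between the media was set by few libraries. KO control a was the highest control library for 106 members and OE doxorubicin b the lowest doxorubicin library for 101. These were also the libraries whose genes as a whole stood high and low among their medium: the median shift of all genes from their mean was 0.28 log2 units in KO control a, the highest of the 6 control libraries, and -0.33 in OE doxorubicin b, the lowest of all 12. Small RNA genes took 66.3% of TPM in KO control a and 75.3% in OE doxorubicin b, within a range of 64.5% to 75.3%. The part of this shift in the members' levels was not tested. The summed level of the members ran from 287 TPM (WT control a) to 566 TPM (KO control a) in control and from 958 TPM (OE doxorubicin b) to 1649 TPM (KO doxorubicin a) with doxorubicin. Library a stood above library b in all 3 genotypes with doxorubicin. With KO control a left out 232 lncRNAs passed the rule, and with OE doxorubicin b left out 197 passed.

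**Figure D5:**
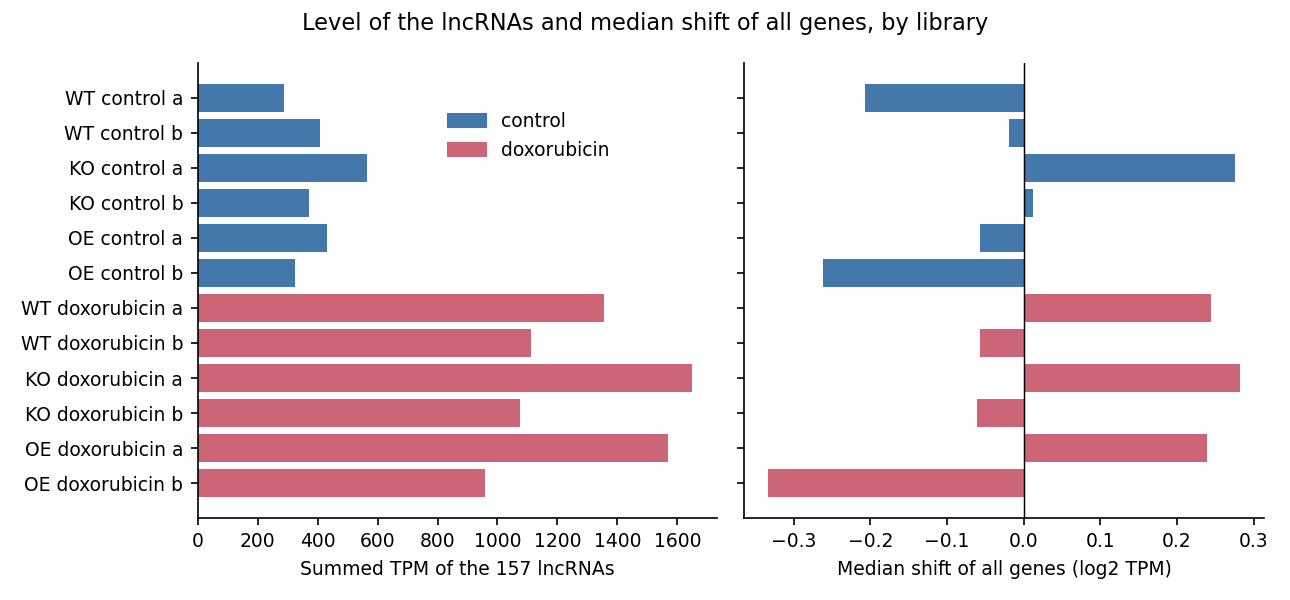
For each of the 12 libraries, the left bars give the summed TPM of the 157 lncRNAs and the right bars the median shift of all genes from their mean, in log2 TPM; control is blue and doxorubicin red. The summed level is 287 to 566 TPM in control and 958 to 1649 TPM with doxorubicin, and OE doxorubicin b has the lowest shift (-0.33).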

How the data were processed

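Strand-specific total RNA-seq of 12 HCT116 libraries was used as the authors deposited it, in log2 TPM. Build hg38, featureCounts, edgeR 3.12.1 under R 3.3.3, the aligner HISAT2 2.0.4 and SAMtools 1.7 appear, without their order, among the submitters' processing notes. The annotation, strand setting and filter were not given in the sources used here. In the deposited log2 values, 2 to the power of the value added up to 1000000 per library. Gene types and positions came from GENCODE release 29.

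Whole reads were recovered from TPM and exon length. At the GENCODE length 15182 genes (91.7%) gave whole reads within 0.05 reads in each library, against 5 with shuffled lengths, and 147 members were among them. The other 10 members used a length found by search. Read numbers cover counting error only, and the floor is 3 reads per library.

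Differences were fitted with limma 3.58.1 (R 4.3.3) on log2(TPM + 1), which understates changes of low genes. The fit used 6 group means and a variance trend, and genes with at least 1 TPM in at least 2 libraries. The procedure was tested on simulated data in which only KO control was changed, in genes that were not among the lowest in reads. General shifts between libraries and effects shared by same-lettered libraries were not simulated, so that test does not cover them. Calls are Benjamini-Hochberg adjusted p under 0.05 over all genes. Alternatives were scaling, pseudocount, filter, small RNA genes, a replicate block, the groups fitted, whole reads with voom, and each library left out.

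The members and lists were chosen with earlier results of these data known. Genes were named by gap and by mean level (clone names only among the first 5 of each), by a called divergent or antisense neighbour, by list, and at the border of the rule. LINC02246, AC011747.1, AL138781.1 and AC006064.4 fall outside this rule and were chosen after their values were seen. A result that the rule would name is not reported here.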

Additional observations from a re-analysis of the deposited data

How the results depend on the processing

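The number of lncRNAs passing the rule (157) was 203 with median-ratio scaling, of which 148 were members. It was 313 with small RNA genes left out and TPM rescaled, which also brings more lncRNAs to 1 TPM, and 211 when the lncRNAs in the range were kept as deposited, a setting added after the data were seen. It was 37 with a mean of at least 5 TPM, 30 with a gap of at least 1 log2 unit, 200 from 0.5 TPM, and 146 to 232 with each library left out. Counts of 0 called members stayed 0 in 5 of the 6 genotype contrasts under each setting run. In KO against WT with doxorubicin 1 member, LINC02246, was called with no filter, median-ratio scaling, small RNA genes left out, the replicate block and voom on whole reads. The main fit did not treat the letters a and b as pairing the samples. The deviations of same-lettered libraries correlated at over 0.1 in 8 of 15 pairs of groups (-0.389 to 0.81). The correlation was highest between KO and OE cells, at 0.81 with doxorubicin and 0.50 in control medium. An effect shared by same-lettered libraries of these groups thus remains possible.

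Neighbours called higher (40 in WT, 24 in KO, 29 in OE) were 21, 12 and 14 of the 85 divergent and antisense neighbours tested. These are 24.7%, 14.1% and 16.5%, beside 20.8%, 10.3% and 12.7% of all protein-coding genes. Lower were 14.1%, 18.8% and 14.1% of the 85, beside 12%, 14.2% and 10.9%. Over all positions 43 neighbours were higher in KO cells with median-ratio scaling, 46 with small RNA genes left out and 43 with voom. In OE cells there were 45 and 48 with the first pair, while the background also moved (20.4% of protein-coding genes higher in KO cells with median-ratio scaling). With each library left out the counts ran from 17 to 34 in WT, 5 to 29 in KO and 7 to 42 in OE cells, and with the replicate block they were 47, 32 and 43. In WT cells VWA1, HK2, TNNI3 and SBF2 lost their call with some WT libraries left out (limma adjusted p up to 0.0887, 0.0848, 0.0955 and 0.0706). Low reads in control limit the fold of most members.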
